A study of Mus musculus with 3 samples.

Results

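The genes described here encode DNA-binding cofactors of the Hox proteins: Meis1, Meis2 and Meis3, Pbx2, Pbx3 and Pbx4, and Pknox1 and Pknox2 (also called Prep1 and Prep2). They were followed in chromatin immunoprecipitation and sequencing (ChIP-seq) of H2AK119ub, histone H2A ubiquitinated by Polycomb repressive complex 1 (PRC1), in tongue epithelial cells of newborn mice (postnatal day 0). Cells carrying the surface protein EpCAM were sorted from tongues without the posterior circumvallate papillae, and libraries were made from 4 ng of DNA. All mice had the genotype Control in the labels, which name no allele. H2AK119ub was profiled in 2 biological replicates; 1 further library, of input DNA, was not used here. A region belonged to a gene when the gene column of its list named the gene, in any location class, or when it overlapped the gene's bounds in GRCm38.p6, another name of the mm10 assembly. This gave 8 of 7838 regions in replicate 1 and 8 of 8093 in replicate 2, for 8 of 21627 protein-coding genes. The lists hold positions, a location class and names, but no height or score, so presence, position and width are described and the depth is unknown.

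Meis, Pbx and Pknox proteins belong to the TALE class of homeodomain proteins. Pbx proteins bind DNA together with Hox proteins and sharpen the choice of site, while Meis and Pknox proteins bind Pbx proteins and can hold them in the nucleus. PRC1 and its H2AK119ub mark are best known for covering silent developmental regulators, and the Hox clusters are the textbook example. The comparison therefore set the marking of the cofactor genes beside that of their Hox partners.

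Regions covered a small part of some cofactor genes and none of others, while they covered every Hox gene in full. A promoter region named 2 of the 8 cofactor genes, Meis2 and Pknox2, in both replicates, and named all 39 Hox genes in both. The cofactor share was 25%, below that of the Hox genes and above the 8.82% of all protein-coding genes. Pbx3 had a promoter region in replicate 1 only, which made 3 genes in replicate 1 (background 12.8%), 2 in replicate 2 (12.4%) and 3 in either (16.4%). Meis1 and Pbx4 had gene body regions in both replicates and no promoter region, and Pknox1 had distal regions in both. Meis3 and Pbx2 were neither named nor overlapped in either list, as were 71.5% of protein-coding genes. Of the cofactor genes, 5 were named by a region of some class in both replicates, against a background of 15.3%, and 3 were overlapped by a region in both, against 13.3%. The 1 group of 2 replicates allows no test over samples that could pass a threshold, so these counts are descriptions.

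The sequence just before the annotated transcription start is shown for 4 genes, because PRC1 is drawn in part to DNA rich in CpG and the marking of these starts differed. RefSeq starts were listed for 5 of the 8 cofactor genes (Meis1, Meis2, Meis3, Pbx2 and Pbx4). No region covered any of these 5 starts in either replicate, while regions covered a start of all 22 Hox genes with a listed start in both. The background is 5.58% of protein-coding genes with a start, so 0 of 5 is close to that share. Pknox2, named by a promoter region in both replicates, had no listed start. Each stretch is the 250 bases before the start in GRCm38.p6, read 5′ to 3′ on the gene's strand, with CpG in capitals. The Meis1 stretch (chr11:19018970-19019219, minus strand) and the Meis2 stretch (chr2:116064620-116064869, minus strand) lay a few kb from a region. The Pbx2 stretch (chr17:34592009-34592258, plus strand) lay far from any. The Hoxa9 stretch (chr6:52227371-52227620, minus strand) lay inside the Hoxa region of both replicates.
Meis1: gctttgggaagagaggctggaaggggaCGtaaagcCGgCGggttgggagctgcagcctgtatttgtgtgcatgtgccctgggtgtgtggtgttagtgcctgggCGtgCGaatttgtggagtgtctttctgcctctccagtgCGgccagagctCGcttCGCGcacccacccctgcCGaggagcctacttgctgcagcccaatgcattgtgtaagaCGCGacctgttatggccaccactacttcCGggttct
Meis2: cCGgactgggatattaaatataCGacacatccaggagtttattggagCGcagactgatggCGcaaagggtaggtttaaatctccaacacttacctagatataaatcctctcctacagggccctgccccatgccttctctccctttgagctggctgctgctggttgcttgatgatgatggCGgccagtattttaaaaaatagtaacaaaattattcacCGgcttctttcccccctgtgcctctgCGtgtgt
Pbx2: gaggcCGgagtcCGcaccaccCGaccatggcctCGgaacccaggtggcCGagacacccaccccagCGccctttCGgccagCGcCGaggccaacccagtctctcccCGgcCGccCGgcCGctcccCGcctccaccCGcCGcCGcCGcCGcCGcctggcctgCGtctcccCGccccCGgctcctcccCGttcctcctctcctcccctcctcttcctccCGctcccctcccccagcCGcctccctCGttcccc
Hoxa9: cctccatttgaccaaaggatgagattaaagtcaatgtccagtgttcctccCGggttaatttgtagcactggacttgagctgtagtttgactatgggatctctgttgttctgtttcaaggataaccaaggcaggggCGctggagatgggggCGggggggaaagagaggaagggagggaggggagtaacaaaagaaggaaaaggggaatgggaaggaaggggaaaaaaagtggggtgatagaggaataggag
The Pbx2 stretch held 27 CpG and the Meis1 stretch 13. The Meis2 stretch held 7 CpG and the Hoxa9 stretch 3. These examples were chosen after values were seen and span the range: in windows of 300 bases at the start, Pbx2 had the most CpG of the cofactor genes (29) and Hoxa9 (4) was at the lowest value of the Hox windows, whose highest was 45 at Hoxa13.

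Meis2, a regulator of limb, heart and craniofacial development, was marked just beyond its gene bounds at both ends. Its promoter region was 10.7 kb wide in replicate 1 (chr2:116067687-116078353) and 8.72 kb wide in replicate 2 (chr2:116069285-116078005). The second lay wholly within the first, and they shared 81.8% of their combined span. Both began above the gene's upper bound (the gene spans 115861264 to 116067537), by 150 bp and 1748 bp, and lay 3068 and 4666 bp upstream of the listed start. The promoter regions also carried the names of noncoding neighbours, 2810405F15Rik in both replicates and G630016G05Rik in replicate 1, and overlapped both of these genes. The lists give no way to say which of these genes a region belongs to.

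At the other end of Meis2, a region of 15.5 kb in replicate 1 (115847868 to 115863408), called intergenic and without a name, reached 2145 bp into the gene. Replicate 2 had a region of 4.20 kb there (115856676 to 115860876), called distal and named for Meis2, that lay within it and stopped 387 bp short of the gene. The 2 replicates therefore placed the same stretch in different classes. Further regions lay below the gene in a stretch with few annotated genes: within 100 kb of that end, replicate 1 had 5 regions that covered 32501 bp outside the gene, and replicate 2 had 3 that covered 15350 bp. Besides the pair at the gene end, a pair of intergenic regions 35.3 kb away in replicate 1 and 38.8 kb away in replicate 2 overlapped, and so did a pair at 47.6 and 48.9 kb. Apart from those 2145 bp in replicate 1, no region lay within Meis2 in either list.

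Pknox2, which encodes a Meis-like partner of Pbx proteins, had the widest promoter regions named for a cofactor gene. These were 14.4 kb wide in replicate 1 (chr9:37135918-37150350) and 16.0 kb wide in replicate 2 (chr9:37136808-37152774), shared 80.3% of their combined span and straddled the gene's upper bound at 37147342. In replicate 1, 11424 bp of the region lay inside the gene, and in replicate 2, 10534 bp. Replicate 1 also had a gene body region of 0.897 kb (36942107 to 36943004), which was narrower than all but 1.86% of its list and had no partner in replicate 2. The protein-coding genes most like Pknox2 in promoter region width, by the smallest summed absolute log2 ratio over the 2 replicates among 1908 genes named in both, were Bmp7 (14.8 and 15.8 kb), Fam78a (13.9 and 16.1 kb) and Neil2 (14.4 and 15.2 kb).

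Pbx3, a Pbx protein with a role in respiratory control in mice, had 1 region in all. It was a promoter region of 3.92 kb on chromosome 2 in replicate 1 (34373438 to 34377357), 1393 bp above the gene's upper bound (34171457 to 34372045). It was narrower than most promoter regions of its list, 23.1% of which were narrower still. In replicate 2 the nearest region lay 177 kb away, within Mapkap1, the neighbouring gene on that side. The 2 replicates thus disagreed on Pbx3.

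Meis1, a factor of blood stem cells and a cofactor in leukaemia, was marked inside the gene near its start. On chromosome 11, replicate 1 had a gene body region of 8.90 kb (19007515 to 19016418). Replicate 2 had regions of 3.37 kb (19007156 to 19010526) and 4.34 kb (19011806 to 19016151) with a gap of 1280 bp between them. From first to last base, these spanned 8.99 kb and shared 93.2% of the combined span with the single region of replicate 1. The upper ends lay 2550 and 2817 bp downstream of the listed start, so the called regions stopped short of the start itself in both replicates. The same stretch lies within the bounds of the noncoding gene Gm16141 (18989652 to 19018330). In replicate 1 an intergenic region of 11.1 kb ended 3115 bp below Meis1 and had no partner in replicate 2.

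Pbx4, the Pbx gene best known from the testis, was marked at the end opposite its start. Its gene body region was 3.91 kb wide in replicate 1 (chr8:69865479-69869389) and 2.77 kb wide in replicate 2 (chr8:69866960-69869732). They lay 32855 and 34336 bp from the listed start. A wide promoter region named for the adjacent genes Yjefn3 and Cilp2 stood beside them. In replicate 1 it was 20.8 kb wide and began 1189 bp beyond Pbx4. In replicate 2 it was 23.6 kb wide and overlapped the last 1179 bp of Pbx4.

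Pknox1, a Meis-like protein needed in early mouse development, was named only by distal regions on chromosome 17. The replicate 1 region was 4.05 kb wide (chr17:31546133-31550183) and the replicate 2 region 1.13 kb (chr17:31547979-31549108), and they ended 14.5 and 15.6 kb below the gene. The replicate 2 region lay within that of replicate 1, and 4.51% of its list was narrower. No region lay inside Pknox1 in either list.

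Meis3, known from the early nervous system of frog embryos, and Pbx2, a widely expressed Pbx gene, had no region of their own. The nearest region to Meis3 on chromosome 7 (16174012 to 16186510) lay 110 kb away in replicate 1 and 111 kb away in replicate 2. It was named for Zfp541 on one side in replicate 1 and for Bbc3 on the other side in replicate 2. The nearest to Pbx2 on chromosome 17 (34592259 to 34597400), 71.5 and 67.2 kb away, were promoter regions of Tnxb (18.0 and 16.2 kb). Absence from a list says only that no region was called there, since the depth is unknown.

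**Figure D1:**
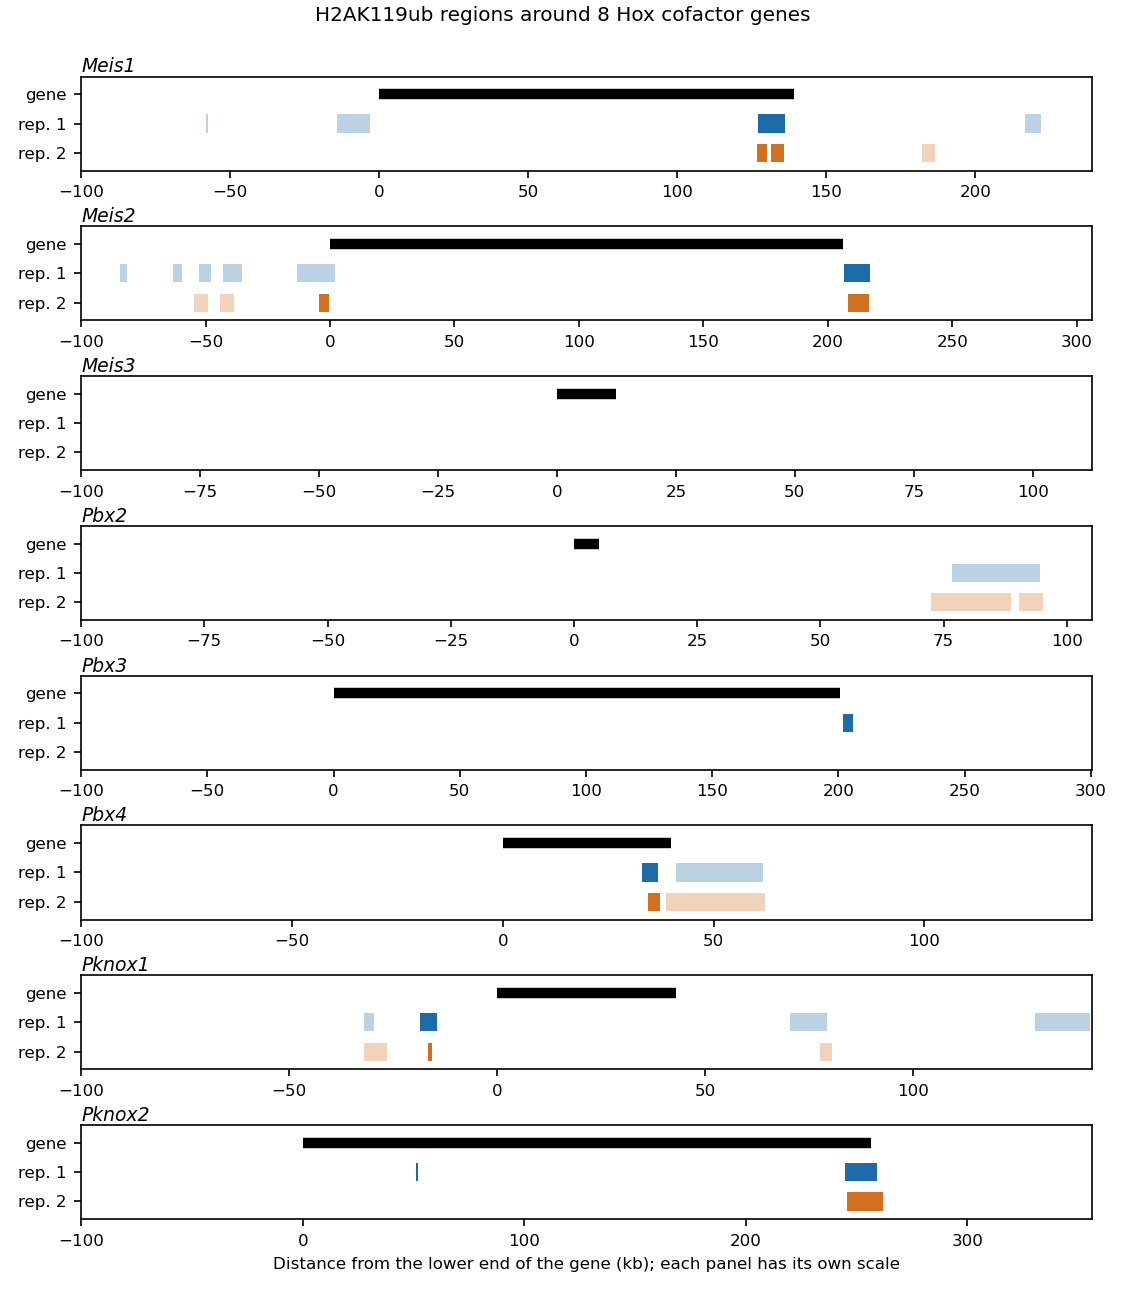
Position of H2AK119ub regions relative to 8 cofactor genes. The horizontal axis is the distance from the lower gene end in kb, black bars are gene bounds, blue and orange bars are regions of replicate 1 and replicate 2 within 100 kb of the gene, and dark bars carry the gene's own name while pale bars do not. Regions sit at or near a gene end of Meis1, Meis2, Pknox2 and Pbx4 in both replicates, and none lies on Meis3 or Pbx2.

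Over their gene bounds, the cofactor genes were covered to a small extent. The share was 9.87% ± 0.0728 (SD, n = 2) for Pbx4, 5.97% ± 0.603 for Meis1, 4.46% ± 0.493 for Pknox2 and 0.52% ± 0.735 for Meis2, the last from 1.04% in replicate 1 and 0% in replicate 2. The 3951 bp covered in Pbx4 in replicate 2 included 1179 bp of the region named for Yjefn3 and Cilp2. With only regions named for Pbx4, an alternative added after seeing the data, its share was 9.82% in replicate 1 and 6.96% in replicate 2 (8.39% ± 2.02). Pbx4 was above Meis1, and Meis1 above Pknox2, in both replicates, but the order turned when only regions wider than the median of their list were counted, with 1.48% for Pbx4, 4.76% for Meis1 and 4.28% for Pknox2. Meis3, Pbx2, Pbx3 and Pknox1 were at 0% in both. The mean over the 8 genes was 2.6% ± 0.22, against 100% in both replicates for the 39 Hox genes and 6.33% ± 0.251 for all protein-coding genes. In all, 27279 bp in replicate 1 and 22200 bp in replicate 2 of the 902881 bp of cofactor genes were covered. The highest single value of a cofactor gene, 9.92% for Pbx4 in replicate 2 with the neighbours' region counted, lay far under the value of every Hox gene in either replicate.

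Gene length differed between the sets and bears on such shares. The cofactor genes had a median length of 91098 bp and the Hox genes of 3737 bp, with the longest Hox gene, Hoxa3, at 44009 bp. The 4 cofactor genes of 100 kb or more (Meis1, Meis2, Pbx3 and Pknox2) were covered to 2.74% ± 0.458 (SD, n = 2), against 1.96% ± 0.265 for the 2426 protein-coding genes of that length. Of these 4, 2 had a promoter region in both replicates, against 11.3% of genes of that length, and 2 were overlapped by a region in both, against 26.0% at that length. The 4 shorter cofactor genes were covered to 2.47% ± 0.0182, against 6.88% ± 0.25 for shorter protein-coding genes, and none had a promoter region in either replicate, while 8.5% of shorter genes had one in both. A region overlapped 1 of them, Pbx4, in both replicates, against 11.7% of shorter genes. The Hox genes, all shorter than 100 kb, were covered in full. The part of gene length in the difference between cofactor and Hox genes was not tested.

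**Figure D2:**
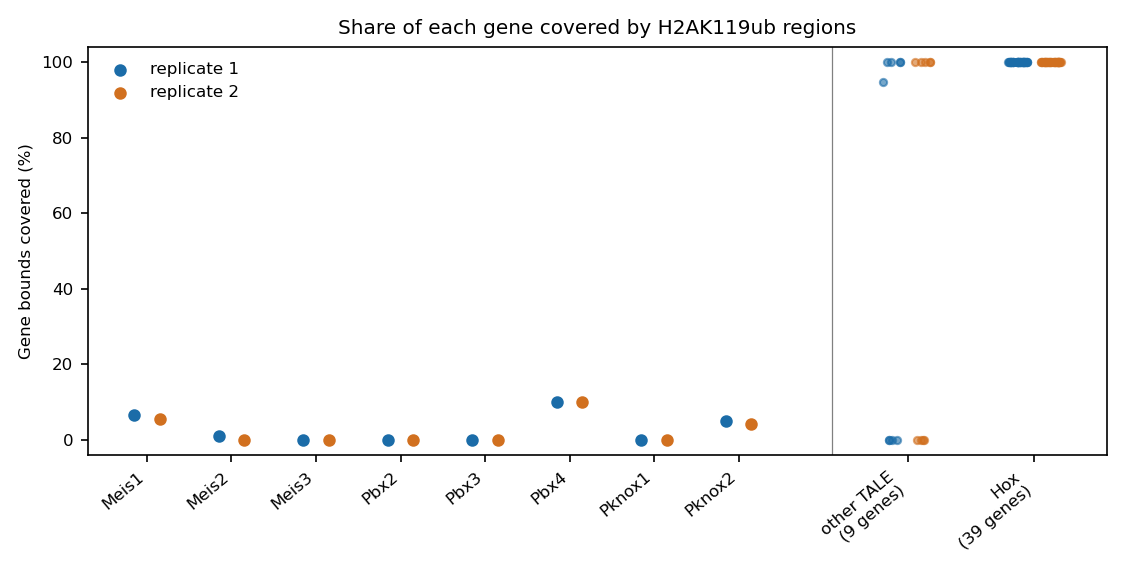
Share of gene bounds covered by H2AK119ub regions, in percent, for each cofactor gene and for 9 other TALE genes and 39 Hox genes; each point is 1 gene in 1 replicate, blue for replicate 1 and orange for replicate 2. The cofactor genes lie at or below 9.92%, all Hox genes lie at 100%, and the other TALE genes lie at either end.

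The Hox genes shared few, very wide regions. The 39 genes lay in 6 regions in replicate 1 and 5 in replicate 2, so they are not independent observations. The region of the median Hox gene was 184298 bp wide in replicate 1 and 157260 bp in replicate 2. The promoter regions of Meis2 (10.7 and 8.72 kb) were about the size of the median over genes with a promoter region in both replicates (10.7 and 9.08 kb). Of those genes, 49.9% in replicate 1 and 47.8% in replicate 2 had narrower regions than Meis2, and 64.6% and 73.7% had narrower regions than Pknox2. Among the Hox genes, 1 had a narrower promoter region than Pknox2 in replicate 1, and 0 did in replicate 2. That gene was Hoxd1, which in replicate 1 had a region of its own of 13.7 kb and in replicate 2 shared the region of 127 kb with the rest of the Hoxd cluster.

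**Figure D3:**
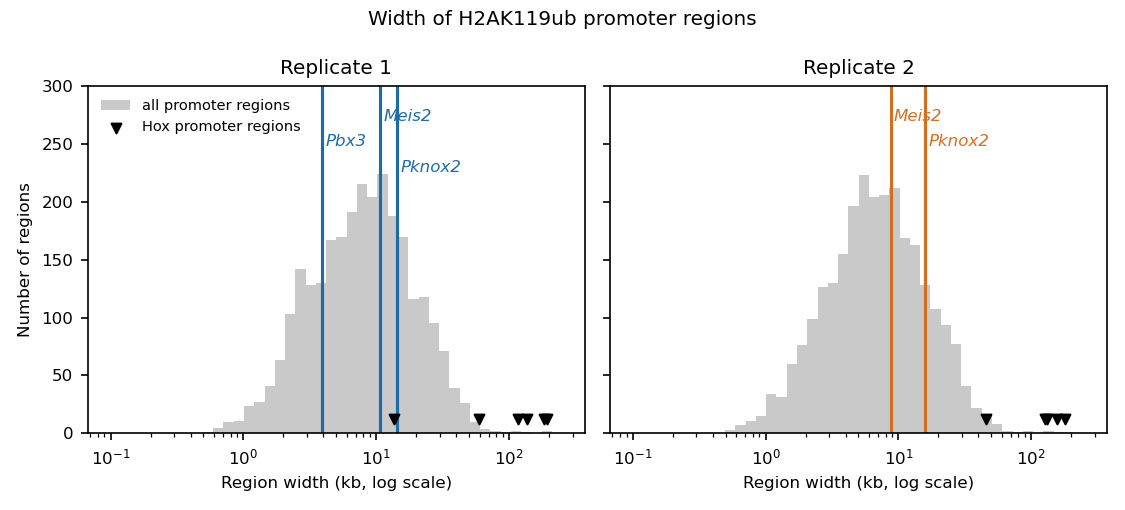
Widths of promoter regions in each replicate on a log axis in kb, with counts of regions in grey, vertical lines at the regions named for cofactor genes and triangles at the regions over Hox genes. The lines fall within the bulk of the distribution, while the Hox regions, apart from the 13.7 kb region of Hoxd1 in replicate 1, lie at 45.6 kb or wider.

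Other homeobox genes of related function differed among themselves. Of the 9 remaining TALE genes, 5 had a promoter region in both replicates: the Iroquois genes Irx1, Irx2, Irx3, Irx4 and Irx5, patterning factors that were covered to between 94.8% and 100% in each replicate. Their promoter regions were between 12.2 and 32.1 kb wide in replicate 1, where Irx3 had a pair of them, and between 21.9 and 26.6 kb in replicate 2. Irx6, the tendon factor Mkx and the repressors Tgif1 and Tgif2 had no promoter region and no region inside the gene. Of these, Tgif2 was named by a distal region in both replicates, and Irx6 and Mkx in replicate 2 only. The homeobox genes Pdx1, En1, En2 and Tlx1, whose proteins are known to bind Pbx proteins, all had a promoter region in both replicates and were covered in full. These regions were between 22.6 and 29.3 kb wide in replicate 1 and between 22.9 and 29.9 kb in replicate 2. Meis2 and Pknox2, with 14.4 kb or less in replicate 1 and 16.0 kb or less in replicate 2, had narrower promoter regions than any of these 4 genes.

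Most regions of the cofactor genes recurred between replicates, though fewer with a similar outline. Of the 8 regions in replicate 1, 6 (75%) met a replicate 2 region over 1 bp or more. Of the 8 in replicate 2 all met one in replicate 1, against 61.1% and 61.2% over all regions. Over all promoter regions the shares were 73.7% and 73.4%. The replicate 2 regions included both Meis1 pieces, which met the same replicate 1 region. They also included the Yjefn3 and Cilp2 region, whose replicate 1 partner lay outside Pbx4. With an overlap of 50% or more of both regions required, 3 (37.5%) and 4 (50%) were shared, against 35.4% and 34.3% over all regions. These were the promoter regions of Meis2 and Pknox2 and the gene body region of Pbx4 in each list, and in replicate 2 the Yjefn3 and Cilp2 region. The widths of all cofactor regions ran from 897 to 15540 bp with a median of 6476.5 bp in replicate 1, and from 1129 to 23550 bp with a median of 4272.5 bp in replicate 2. The medians over all regions were 4864 and 4219 bp.

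Base composition at the starts overlapped between cofactor and Hox genes. In windows of 300 bases, from 250 before to 50 after the start, the 5 cofactor genes had between 13 and 29 CpG with a median of 19, and the 24 windows of 22 Hox genes had between 4 and 45 with a median of 14.5. The ratio of observed to expected CpG was 0.882 for Pbx2, 0.799 for Pbx4, 0.688 for Meis3, 0.666 for Meis2 and 0.589 for Meis1. Their median, 0.688, compares with 0.626 for the Hox windows, 0.679 for genes with a promoter region in both replicates and 0.539 for genes with one in neither. Pbx2, Pbx4 and Meis3 were above the median of 0.679, and Meis2 and Meis1 below it. Pbx2 and Meis3 had no region. The lower and upper quartiles were 0.404 and 0.844 with a promoter region in both replicates, and 0.21 and 0.824 with one in neither. A link between CpG content and marking was not tested.

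**Figure D4:**
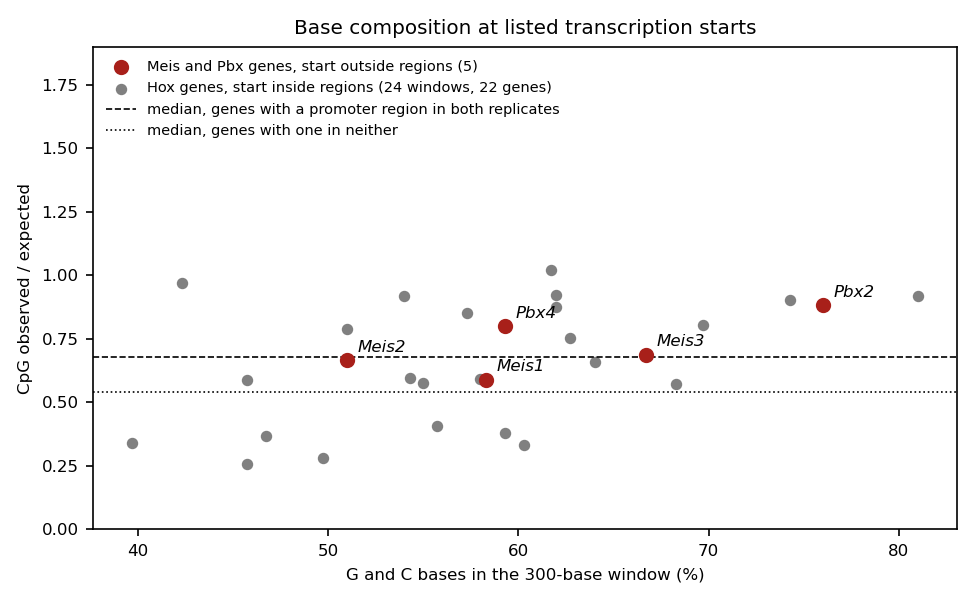
Ratio of observed to expected CpG against the percentage of G and C bases in the 300-base window at each listed start. Red points are 5 Meis and Pbx genes whose starts lay outside all regions, and grey points are 24 windows of Hox genes whose starts lay inside; the lines mark medians of 0.679 and 0.539 for genes with a promoter region in both replicates and in neither. Red and grey points overlap along both axes.

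The same windows were searched on both strands for the letters that these proteins are known to bind. The Meis motif TGACAG was in 0 of the 5 cofactor windows and in 2 of the 24 Hox windows (Hoxa2 and Hoxa3), against 18.3% of 21044 windows of protein-coding genes. The Pbx and Hox motif TGATTNAT was in 0 of the cofactor windows and in 2 Hox windows (Hoxa2 and Hoxd11), against 2.78% of all. The Pbx and Meis motif TGATTGAC was in none of either set, against 0.794% of all. TGACAG overlaps TGATTGAC at its end only when AG follows, and no match says only that these letters are not in this window.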

How the data were processed

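Each replicate has a deposited list of called regions in mm10, with the first and last coordinate, a location class (promoter, gene body, distal or intergenic) and gene names, per the file headers. These are positions and other annotations rather than measured signal, and the authors' deposited lists hold no score. The submitters' processing notes list Bowtie2 2.3.3 and SAMtools 0.1.19 without their roles; how peaks were called, whether the input entered and which coordinate base applies is not given in the sources used here. Starts were read as 0-based, so width is end minus start.

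Gene bounds, symbols and listed starts came from RefSeq tables of GRCm38.p6; 5 of the 8 genes had a start, and exons and introns were not annotated. Names were matched by symbol, then by a synonym of 1 gene only. Genes are the protein-coding genes of the autosomes and X with coordinates. Overlap was counted from 1 bp. Errors are SD over the 2 replicates, or for the shared percentage over the 2 directions of the comparison. No test was run, and code was tested on simulated regions. All 8 genes, the 39 Hox genes, the remaining TALE genes, 4 homeobox partners of Pbx proteins and the 3 genes nearest in width were named; these lists were chosen with earlier results of these data known. Hoxa9 and the other genes whose starts are printed, and the motifs, were chosen after values were seen. Python 3.11.15, numpy 2.4.6, pandas 2.3.3 and matplotlib 3.10.9 were used.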

Additional observations from a re-analysis of the deposited data

How the results depend on the processing

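For 14 results, 68 alternative values were computed. Of these, 20 are coverage values with 1 replicate left out, which with 2 replicates always fall within the SD and say nothing of stability. Of the other 48, 32 moved by no more than the replicate SD or, for counts, stayed within 1.5 times the main count. The remaining 16 moved further, and reversal was not assessed. Some of the 32 were fixed in advance. The Hox counts with either replicate, 1 replicate or any class could not fall below the main count, which already held all Hox genes. Nor could genes at 0% move when only regions above the median width were counted. The count of cofactor genes with a promoter region in both replicates, 2, ran from 2 to 3 when 1 replicate was left out. It was 5 with names of any location class, 4 with any region within 5000 bp of either gene end, and 0 with a region over the listed start. Starts were listed for 5 of the 8 cofactor genes. A gene without one, such as Pknox2, was counted as not covered. Requiring a covered start gave 22 Hox genes and 2 other TALE genes, with starts listed for 22 and 5 of them. The mean coverage of the cofactor genes was 2.45% and 2.76% with 1 replicate left out, 4.26% with bounds extended by 5000 bp and 1.38% with only regions above the median width; extended bounds gave 99.9% for the Hox genes. Coverage of single cofactor genes moved by more than the SD in 7 of 33 values. The 33 include values with 1 replicate left out, and genes at 0% with only wide regions counted, which could not move. The 7 came from extended bounds, regions above the median width, or only regions named for Pbx4. Cofactor regions were shared at 87.5% on average over the 2 directions of the comparison, with an SD of 17.7 between them. Both directions compare the same 2 lists, so this SD is not a spread between independent replicates. With an overlap of at least 50% of both, the average was 43.8%, which was counted as moved against that SD. The shared percentage with 1 replicate left out was not run, because it needs both lists. No paired analysis was possible because the replicates form 1 group. With no score in the lists, the depth sets an unknown limit on what could be called.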
